A study of Homo sapiens and Mus musculus with 20 samples.

Results

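Cytosine methylation in mammalian DNA is written, copied, read and removed by a small set of proteins, and 9 of their genes were followed here by symbol in RNA sequencing of IMR90 cells: DNMT1, DNMT3A, DNMT3B, UHRF1, TET1, TET2, TET3, MBD2 and HELLS. They were chosen by name and not by a rule on measured values, although earlier results of these data were known. They are 9 of the 17554 genes listed in any of the 12 IMR90 libraries. IMR90 is a line of human fetal lung fibroblasts, and all 12 libraries were labelled wild type. They formed 6 groups of 2: cells given A485, an inhibitor of the histone acetyltransferase p300, with the untreated Control2; cells given MS-275, which inhibits histone deacetylases of class I, with the untreated Control3; and cells given pyruvate with the untreated Control6. The study asked how these treatments, which alter histone lactylation, act on senescence, and it added pyruvate to senescent cells. Doses and times were not in the labels, and all libraries came from a single cell line. No source said whether the 2 libraries of a group were separate cultures. A p-value here therefore sets a difference against the spread between libraries only, which limma estimates partly from other genes. It says nothing of a spread between cultures.

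DNMT1 is the maintenance methyltransferase that copies the methylation pattern onto the daughter strand after replication. UHRF1 recognises hemimethylated CpG sites and recruits DNMT1 to them, and HELLS is a chromatin remodeller of the SNF2 family needed for methylation of repeats and compact chromatin. DNMT3A and DNMT3B place methyl groups on unmethylated sites. TET1, TET2 and TET3 oxidise 5-methylcytosine, which is the start of active demethylation, and MBD2 binds methylated CpG and brings in the NuRD corepressor. In proliferating fibroblasts the maintenance proteins act in S phase, when the pattern has to be copied.

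DNMT1, UHRF1 and HELLS shared a sequence feature at their start sites that the choice of genes did not use, and their promoters are shown for that reason. The windows run from 250 bases before to 50 bases after the annotated start and were taken from RefSeq on GRCh38.p14. The search covered the 4 spellings TTTCCCGC, TTTCGCGC, TTTGCCGC and TTTGGCGC of the E2F consensus, on both strands, and at least 1 spelling was present in 3.31% of 35116 RefSeq windows. Capitals mark the matches, and a match on the opposite strand reads as its reverse complement. DNMT1 is at chr19:10194904-10195203 on the minus strand, UHRF1 at chr19:4909251-4909550 on the plus strand and HELLS at chr10:94545538-94545837 on the plus strand.
DNMT1: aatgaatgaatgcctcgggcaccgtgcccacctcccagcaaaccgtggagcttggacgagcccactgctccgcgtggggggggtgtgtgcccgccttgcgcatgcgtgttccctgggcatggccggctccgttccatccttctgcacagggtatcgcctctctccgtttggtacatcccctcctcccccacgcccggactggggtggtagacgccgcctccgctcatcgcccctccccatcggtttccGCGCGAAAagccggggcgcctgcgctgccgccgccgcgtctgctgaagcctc
UHRF1: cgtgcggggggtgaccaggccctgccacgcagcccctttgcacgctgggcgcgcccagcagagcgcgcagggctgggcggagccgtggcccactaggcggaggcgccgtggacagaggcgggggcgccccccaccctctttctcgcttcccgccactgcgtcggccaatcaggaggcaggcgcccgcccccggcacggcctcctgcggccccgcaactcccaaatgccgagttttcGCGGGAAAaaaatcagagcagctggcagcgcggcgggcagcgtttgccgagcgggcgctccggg
HELLS: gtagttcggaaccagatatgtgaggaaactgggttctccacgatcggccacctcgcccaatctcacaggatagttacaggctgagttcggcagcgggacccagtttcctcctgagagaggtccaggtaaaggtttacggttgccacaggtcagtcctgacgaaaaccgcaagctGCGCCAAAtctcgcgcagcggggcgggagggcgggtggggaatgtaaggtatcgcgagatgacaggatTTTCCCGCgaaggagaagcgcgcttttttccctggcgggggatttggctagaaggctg
Counting from the start site, the match in DNMT1 begins at position -2 and that in UHRF1 at -14, and HELLS has 2 matches, at -76 and -8. None of the other 6 genes held the letters in the window at its canonical start, although the only DNMT3B window lies 17467 bases from that start and so does not test it. The CHR element TTTGAA, present in 15.2% of windows, was found among the 9 genes in MBD2 alone. The DNMT1, UHRF1 and HELLS windows held 30, 36 and 22 CpG dinucleotides, against a median of 14 over all windows, and those of DNMT3A, TET3, TET2 and MBD2, without the letters, held 46, 45, 35 and 32. A letter match is a description of the window and not a measured binding site.

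The deposited values were read counts per gene divided by a size factor for each library, called normalised counts below, and each of the 3 experiments was normalised apart from the others. The libraries held an estimated 24179065 to 46971227 reads in listed genes. Replicate libraries differed most in the MS-275 experiment, where a chi-square statistic per gene reached 402 in Control3 and 458 in MS-275, against 83.6 to 111 in the A485 experiment and 4.54 to 13.8 in the pyruvate experiment. All 12 fibroblast markers examined were listed in every experiment, with summed normalised counts of 566361 to 2574090 per library. Of 10 markers of epithelial, endothelial and blood cells, EPCAM, VWF and LYZ were listed in the A485 experiment, EPCAM and VWF in the MS-275 experiment and VWF alone in the pyruvate experiment, with sums of 33.4 to 217. In bulk libraries a smaller share of cells using a gene and less RNA per cell cannot be told apart.

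**Figure D1:**
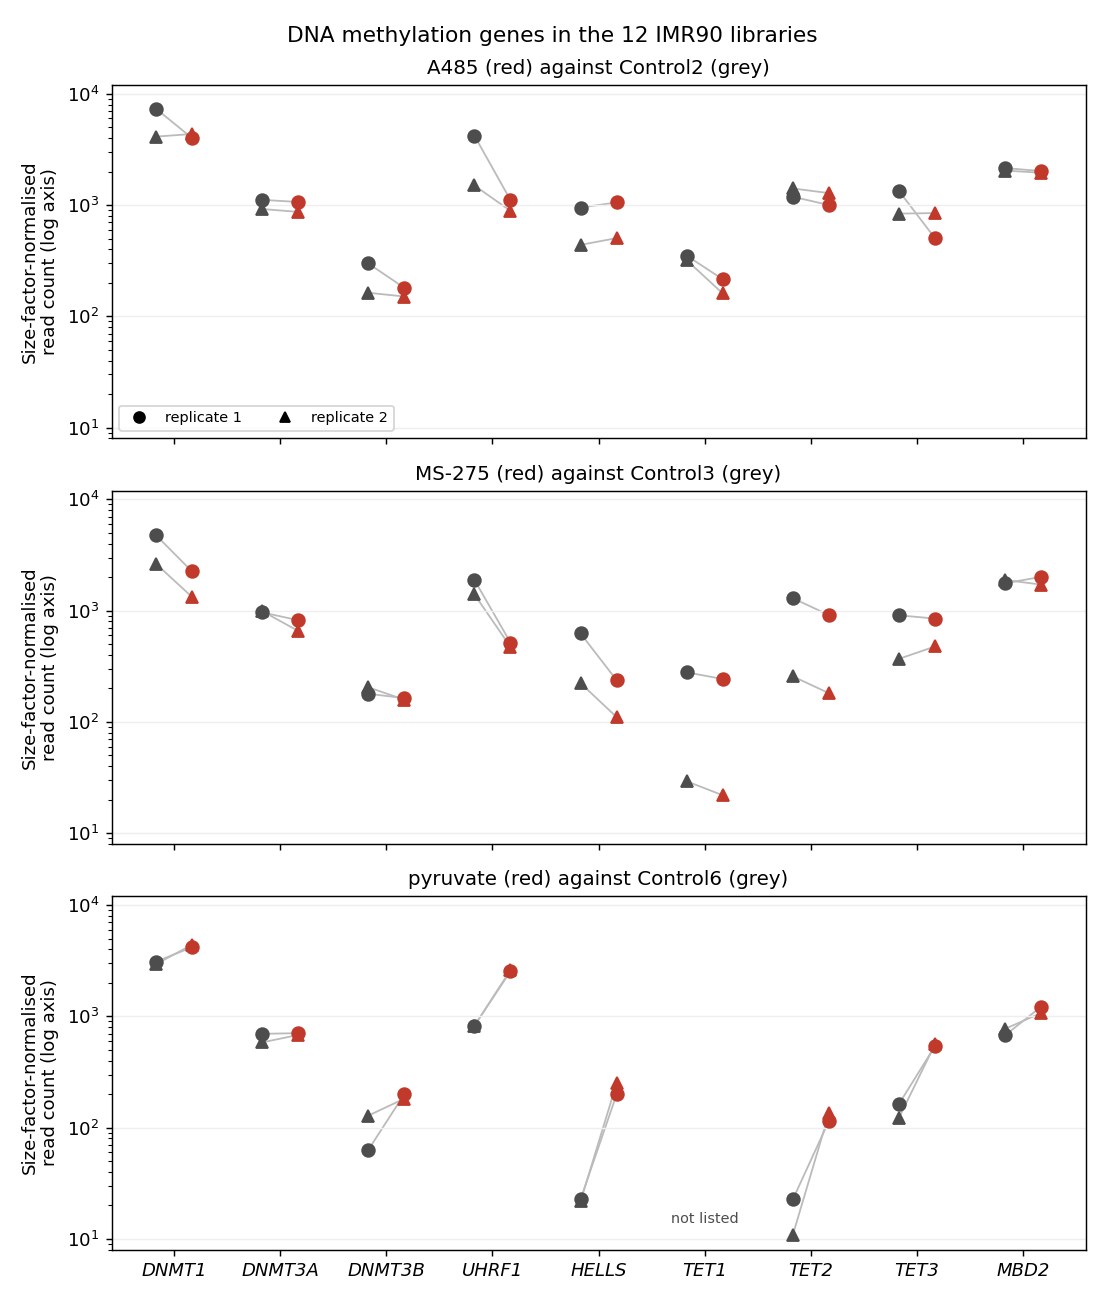
Normalised read counts of the 9 genes on a log axis in each of the 12 libraries, with untreated libraries in grey, treated libraries in red, circles for replicate 1, triangles for replicate 2 and thin lines joining libraries of the same replicate number. TET1 and TET2 split by replicate number in the MS-275 experiment, and 7 of the 8 genes listed in the pyruvate experiment had both treated libraries above both controls.

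On hg38 in the GENCODE annotation, the maintenance genes DNMT1, UHRF1 and HELLS span chr19:10133342-10231286 (-), chr19:4903080-4962154 (+) and chr10:94545329-94613905 (+). DNMT3A lies at chr2:25227855-25342590 (-) and DNMT3B at chr20:32762385-32809359 (+). The TET genes lie at chr10:68560337-68694487 (+) for TET1, chr4:105145875-105279816 (+) for TET2 and chr2:73984910-74108176 (+) for TET3, and MBD2 lies at chr18:54151606-54224669 (-). All 9 are protein-coding, and the plus or minus sign gives the strand.

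Per kilobase of canonical transcript, DNMT1 had the highest control level of the set in all 3 experiments, followed by UHRF1 and MBD2. In Control2 the DNMT1 level was 1395 and 781 normalised counts per kilobase in the 2 libraries, and that of UHRF1 was 1080 and 385, so the pair overlapped, as did UHRF1 and MBD2 (424 and 403). In Control3 UHRF1 (486 and 360) and MBD2 (348 and 373) overlapped too, while DNMT1 and UHRF1 did not. In Control6 the levels were 586 and 558 for DNMT1, 211 and 210 for UHRF1, and 133 and 153 for MBD2. Neighbours did not overlap there. The lower end of the order held TET1, with a mean of 34.9 in Control2 and 16.1 in Control3, and TET2, with a mean of 1.74 in Control6, where TET1 was not listed. These per-kilobase levels can be ordered within an experiment but not compared between experiments.

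A485 was compared with Control2 to ask how the genes stood after inhibition of p300. None of the 9 genes passed the test, and UHRF1 and TET1 showed the lowest values relative to their controls. A gene was called when its Benjamini-Hochberg adjusted p in limma, over all genes tested, was under 0.05 and its log2 fold change exceeded 1 in either direction. By that rule 0 of 9 were called, where 10.4% of 16084 genes were. At an unadjusted p under 0.05 there were 2, UHRF1 and TET1, and 30.8% of all genes. On whole reads recovered from the normalised counts, edgeR's quasi-likelihood test also called 0, where 10.3% of all genes were called. DESeq2 called 1, UHRF1, where 14.5% of all genes were called.

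Among the maintenance genes, UHRF1 measured 4211 and 1501 in Control2 and 1110 and 886 in A485. The groups did not overlap, and the spread was mostly within Control2. Its log2 fold change was -1.34 (SE 0.47, n = 2 against 2, limma adjusted p = 0.117), a 2.53-fold lower geometric mean. Without Control2 replicate 1 the log2 fold change was -0.60, and without Control2 replicate 2 it was -2.08, where the gene was called (adjusted p = 0.0413). DNMT1 measured 7355 and 4117 in Control2 and 4002 and 4348 in A485. Replicate 1 of Control2 stood above the other 3 libraries, which differed little, and the log2 fold change was -0.40 (SE 0.29, adjusted p = 0.397). HELLS measured 948 and 438 in Control2 and 1055 and 504 in A485, so the libraries followed the replicate number and not the treatment, with a log2 fold change of 0.18 (SE 0.49, adjusted p = 0.836).

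The de novo methyltransferases showed little separation in the A485 experiment. DNMT3A measured 1113 and 920 in Control2 and 1064 and 868 in A485, a log2 fold change of -0.07 (SE 0.22, adjusted p = 0.847). DNMT3B measured 299 and 163 in Control2 and 180 and 151 in A485. The high library of DNMT3B was again Control2 replicate 1, and its log2 fold change was -0.42 (SE 0.40, adjusted p = 0.524).

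Of the TET dioxygenases, TET1 separated the groups most clearly. It measured 351 and 319 in Control2 and 215 and 160 in A485, a log2 fold change of -0.85 (SE 0.30, adjusted p = 0.122). Both treated libraries lay below both controls, and the difference was -0.71 between the libraries numbered 1 and -0.99 between those numbered 2. TET3 measured 1338 and 837 in Control2 and 501 and 846 in A485, a log2 fold change of -0.70 (SE 0.35, adjusted p = 0.235), with all of the difference in the libraries numbered 1. TET2 measured 1187 and 1409 in Control2 and 1000 and 1280 in A485 and overlapped between groups (log2 fold change -0.19, SE 0.22, adjusted p = 0.59). The reader MBD2 varied least, with 2148 and 2042 in Control2 and 2019 and 1948 in A485 (log2 fold change -0.08, SE 0.16, adjusted p = 0.782).

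In all, 8 of the 9 fold changes were below 0 in the A485 experiment, with a median of -0.40 beside 0.01 over all genes tested, and 3 of 9 (UHRF1, TET1 and MBD2) had both treated libraries below both controls, as 30.7% of all genes did. Scaling the libraries to equal totals moved the median of all genes by 0.39 on the log2 scale, and DNMT3A, TET2 and MBD2 then had fold changes of 0.32, 0.20 and 0.31, which are above 0 but below that scaling's median of 0.40. HELLS, above 0 here, was at -0.06 with the length and GC dependence removed. Of the 12 fibroblast markers, 10 fell in A485, where 10.4% of all genes were called in either direction. Their sums were 2055190 and 2574090 in Control2 and 566361 and 682792 in A485 over all 12. EPCAM rose and VWF fell to 0 in both A485 libraries. Whether these shifts bear on the 9 genes was not tested.

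**Figure D2:**
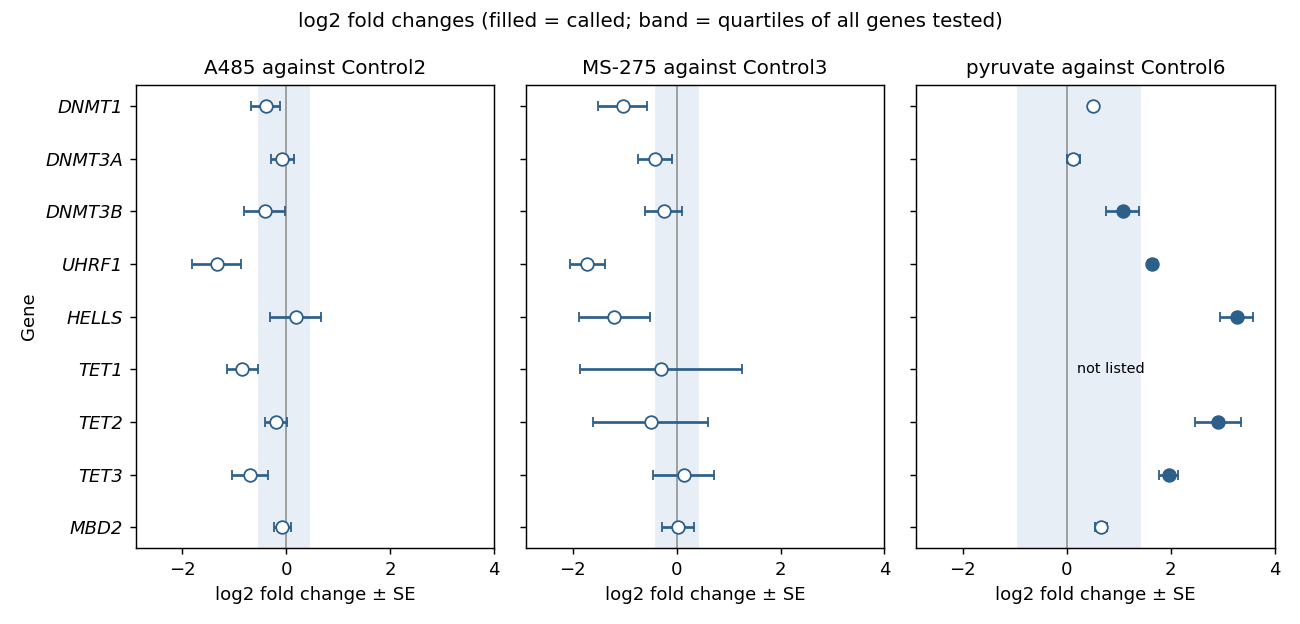
log2 fold change of each gene in the 3 comparisons with its standard error in limma, filled where the gene was called and open where it was not, over a band from the lower to the upper quartile of all genes tested. UHRF1 lay at -1.34 in A485, -1.72 in MS-275 and 1.65 in pyruvate.

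MS-275 was compared with Control3 to ask how the genes stood after inhibition of class I histone deacetylases. The lowest fold changes were those of UHRF1, HELLS and DNMT1, and none passed the test without regard to replicate number. limma called 0 of 9 members and 0 of 15883 genes (0%). At an unadjusted p under 0.05 there was 1 member, UHRF1, and 10.9% of all genes. On recovered reads edgeR also called 0 members and 0 genes, while DESeq2 called 1 member, UHRF1 (adjusted p = 0.0101), and 3.62% of all genes. Because libraries of the same number stood close together here, each gene is also described by the difference between the treated and the control library of the same number, as a description with no test. With the replicate number as a block, limma called 3 members lower, DNMT1, UHRF1 and HELLS, where 13.7% of all genes were called. That fit is taken up in the section on processing, and the adjusted p values below are without the block.

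UHRF1 measured 1894 and 1404 in Control3 and 517 and 473 in MS-275. The groups were well separated, and the log2 difference was -1.87 in number 1 and -1.57 in number 2. Its log2 fold change was -1.72 (SE 0.34, n = 2 against 2, limma adjusted p = 0.239), a 3.29-fold lower geometric mean. DNMT1 measured 4780 and 2646 in Control3 and 2254 and 1329 in MS-275, with no overlap. The DNMT1 difference was nearly the same in each number, -1.08 and -0.99, and the log2 fold change was -1.04 (SE 0.47, adjusted p = 0.551). HELLS measured 625 and 223 in Control3 and 237 and 111 in MS-275. The groups of HELLS overlapped because its number 1 libraries were 2.80 and 2.15 times its number 2 libraries, while the differences within number were -1.39 and -1.01 (log2 fold change -1.20, SE 0.68, adjusted p = 0.649).

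The members whose windows held the E2F letters, DNMT1, UHRF1 and HELLS, were the same 3 whose log2 fold change in MS-275 was below -1. Their values lay below the lower quartile of all genes, -0.39, as did those of DNMT3A (-0.41) and TET2 (-0.50), whose windows lacked the letters. None of DNMT1, UHRF1 and HELLS was called there without the replicate block. In A485 the 3 genes with the letters did not stand together, since HELLS was at 0.18. In pyruvate DNMT1, at 0.51, was not called and lay below TET2 (2.90) and TET3 (1.96), whose windows lacked the letters, and below DNMT3B (1.08), whose start was not tested. Whether the letters bear on any of these values was not tested.

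DNMT3A measured 966 and 992 in Control3 and 821 and 658 in MS-275, and both treated libraries were below the controls (log2 fold change -0.41, SE 0.32, adjusted p = 0.77). DNMT3B measured 179 and 205 in Control3 and 164 and 158 in MS-275, also without overlap, and its log2 fold change was -0.25 (SE 0.35, adjusted p = 0.926). MBD2 measured 1761 and 1887 in Control3 and 2015 and 1715 in MS-275, and its differences within number had opposite signs, 0.19 and -0.14.

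The TET genes were set apart in this experiment by replicate number. TET1 measured 279 and 29.3 in Control3 and 243 and 21.9 in MS-275, so that library 1 was 9.53 times library 2 in the controls and 11.1 times in the treated cells. TET2 measured 1295 and 257 in Control3 and 913 and 181 in MS-275, a ratio of 5.04 in the controls and 5.03 in the treated cells. TET3 measured 908 and 369 in Control3 and 849 and 477 in MS-275. For TET1 and TET2 the library number therefore moved the value far more than MS-275 did. The differences within number were -0.20 and -0.40 for TET1, -0.50 and -0.50 for TET2, and -0.10 and 0.37 for TET3. With the number ignored, the log2 fold changes were -0.30 (SE 1.56) for TET1, -0.50 (SE 1.11) for TET2 and 0.14 (SE 0.58) for TET3, and no adjusted p was under 0.97. Leaving out a single library changed the sign of each: TET1 ranged from -2.01 without MS-275 replicate 1 to 1.40 without MS-275 replicate 2, TET2 from -1.67 without Control3 replicate 2 to 0.66 without Control3 replicate 1, and TET3 from -0.51 to 0.79 without the same 2 control libraries in turn.

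This split between numbers ran with transcript length across the whole experiment. Over 15636 genes, the log2 difference between libraries 1 and 2 had a Spearman correlation with canonical transcript length of 0.50 in Control3 and 0.48 in MS-275, and with GC content of -0.37 in Control3, as a description across genes, which are not independent. The transcripts of TET1 and TET2 are 9.612 and 9.589 kb long with 42.1% and 41.2% GC, whereas that of UHRF1 is 3.898 kb with 55.7% GC. HELLS is short, at 3.128 kb, but has the lowest GC content of the set, 38.8%. How far length or GC content accounts for the split of any 1 gene was not tested. With the trend on length and GC content removed from each library, the MS-275 fold changes were -1.73 for UHRF1, -1.06 for DNMT1 and -1.17 for HELLS.

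In all, 7 of the 9 genes were lower in MS-275 within both numbers, as 40.4% of genes were, and 4 of 9 (DNMT1, UHRF1, DNMT3A and DNMT3B) had both treated libraries below both controls, as 19.3% of genes did. The median of the 9 fold changes was -0.41 beside -0.01 over all genes.

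**Figure D3:**
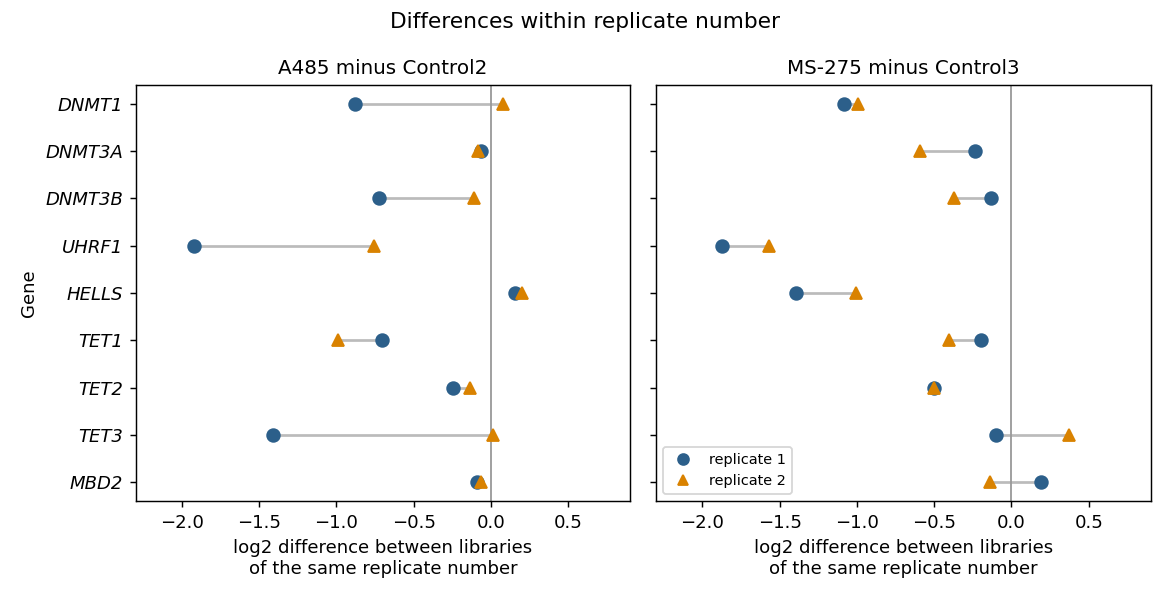
log2 difference between the treated and the control library of the same replicate number for each gene, with circles for number 1 and triangles for number 2, in the A485 (left) and MS-275 (right) experiments. UHRF1 was at -1.87 and -1.57 in MS-275 and at -1.92 and -0.76 in A485.

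Pyruvate was compared with Control6 to ask how the genes stood in senescent cells supplied with it. DNMT3B, UHRF1, TET2, TET3 and HELLS rose, 5 of the 8 genes listed, and none fell. In this experiment 54.1% of 12013 genes were called and 31.0% were called higher, so the count has to be read against a broad shift. Without the fold minimum, 7 of the 8 had an adjusted p under 0.05, as 80.9% of all genes did, and DNMT3A was the exception. TET1 was not among the genes listed.

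HELLS measured 22.6 and 21.7 in Control6 and 199 and 249 in pyruvate. The treated libraries stood far above the controls, a 9.66-fold higher geometric mean and a log2 fold change of 3.27 (SE 0.32, n = 2 against 2, limma adjusted p = 1.84e-06). UHRF1 measured 824 and 817 in Control6 and 2534 and 2608 in pyruvate. Replicates of UHRF1 were nearly equal, and its log2 fold change was 1.65 (SE 0.08, adjusted p = 8.43e-09). DNMT1 measured 3092 and 2942 in Control6 and 4180 and 4395 in pyruvate, a log2 fold change of 0.51 (SE 0.07, adjusted p = 3.06e-05), which passed the p threshold but not the fold minimum.

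Among the TET genes, TET2 measured 22.6 and 10.9 in Control6 and 115 and 134 in pyruvate, a log2 fold change of 2.90 (SE 0.45, adjusted p = 9.02e-05). TET3 measured 163 and 123 in Control6 and 542 and 563 in pyruvate, a log2 fold change of 1.96 (SE 0.18, adjusted p = 1.30e-06). Neither gene overlapped between the groups. The control values of TET2 and HELLS were low, so the pseudocount of 1 enters their fold changes.

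DNMT3B measured 62.9 and 128 in Control6 and 200 and 182 in pyruvate, a log2 fold change of 1.08 (SE 0.32, adjusted p = 0.0084). That call rested on the lower control: without Control6 replicate 1 the log2 fold change was 0.57, and under quantile normalisation it was 0.42 (adjusted p = 0.259). DNMT3A measured 696 and 583 in Control6 and 706 and 681 in pyruvate and did not pass either threshold (log2 fold change 0.12, SE 0.12, adjusted p = 0.374). MBD2 measured 676 and 773 in Control6 and 1223 and 1072 in pyruvate. Its libraries did not overlap, and its log2 fold change was 0.66 (SE 0.11, adjusted p = 2.01e-04).

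Over all genes in the pyruvate experiment, the fold change ran with the base composition of the transcript, with a Spearman correlation of -0.72 with GC content and 0.33 with length over 11888 genes. HELLS and TET2 have the lowest GC contents of the 8 genes listed. With that trend removed from each library, the log2 fold change was 1.90 for HELLS and 1.29 for TET2, both smaller than before, and 2.57 for UHRF1, 1.26 for DNMT1, 1.84 for DNMT3B, 2.49 for TET3 and 0.70 for DNMT3A, all larger. DNMT1 was then called, MBD2 was at 0.01 (adjusted p = 0.922), and the share of all genes called was 31.1%. The median of all genes moved from -0.01 to 0.28 with the trend removed. The fold changes after removal have to be read against that median, and MBD2 lay below it. The fold minimum was not moved with the median, and the call of DNMT1, at 1.26, depended on that. UHRF1, DNMT3B, TET2, TET3 and HELLS were called with and without the trend. Whether the relation with GC content arose in the cells or in the libraries was not tested.

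**Figure D4:**
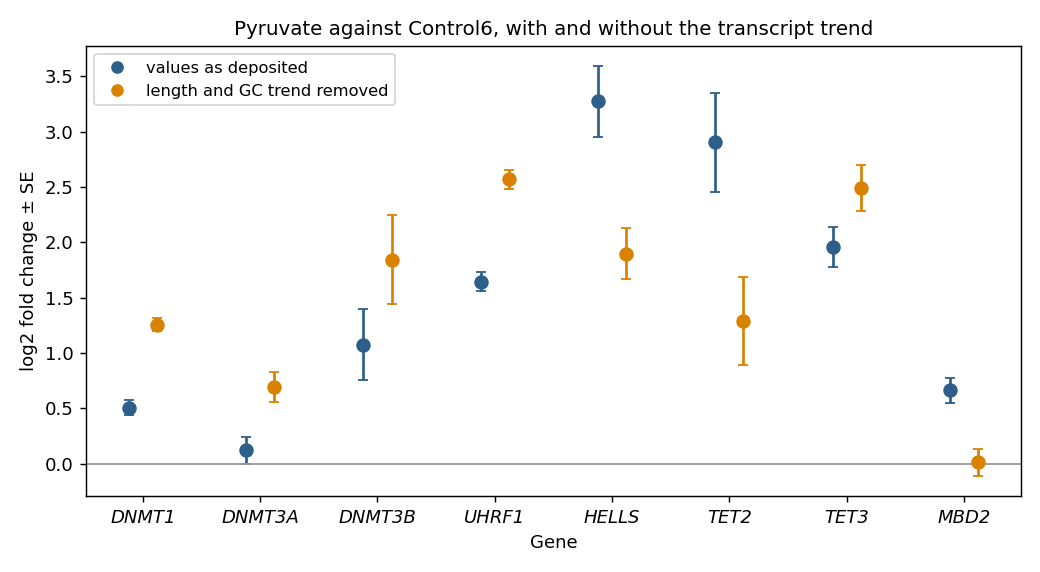
log2 fold change in pyruvate against Control6 with its standard error for the 8 genes listed, from the values as deposited (blue) and after its dependence on GC content and transcript length was removed from each library (orange). HELLS went from 3.27 to 1.90 and MBD2 from 0.66 to 0.01, while UHRF1 went from 1.65 to 2.57. The median of all genes went from -0.01 to 0.28.

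The median of the 8 fold changes was 1.36, beside -0.01 over all genes, and 7 of the 8 had both treated libraries above both controls, as 45.2% of genes did. Equal library totals shifted the median of all genes to 0.30 in this experiment and to -0.15 in the MS-275 experiment. No pyruvate fold change of a member changed sign under that scaling, while DNMT3A was at -0.10 under quantile normalisation. In the MS-275 experiment TET3, at -0.01, and MBD2, at -0.11, did, and both lay above that scaling's median.

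The fold changes of the 3 experiments, which shared no libraries, were set against each other by a limma contrast of the 2 effects, with an adjusted p under 0.05 as the threshold. Each contrast took a single residual variance per gene over both experiments, although the spread between replicates differed between experiments. A485 and pyruvate differed for 7 of 8 genes, all but DNMT3A, where 65.4% of all genes differed. The differences were -2.99 for UHRF1 (SE 0.55, adjusted p = 0.00164), -3.09 for HELLS (SE 0.62, adjusted p = 0.00248) and -3.10 for TET2 (SE 0.48, adjusted p = 6.24e-04). With the length and GC dependence removed, they were -3.86 for UHRF1, -1.97 for HELLS and -1.46 for TET2, all past the threshold. The difference of TET2 missed it in a limma fit shared by the 12 libraries (adjusted p = 0.0517). Those of DNMT1 and DNMT3B, -0.91 (SE 0.33, adjusted p = 0.0378) and -1.50 (SE 0.58, adjusted p = 0.048), each missed the threshold when any of 6 libraries was left out, with adjusted p from 0.0639 to 0.104 and from 0.0737 to 0.149, and that of MBD2, -0.74 (SE 0.19, adjusted p = 0.00816), was -0.04 with the length and GC dependence removed. MS-275 and pyruvate differed for 3 of 8 genes, where 41.1% of all genes did. These were UHRF1 at -3.36 (SE 0.28, adjusted p = 7.26e-04), HELLS at -4.47 (SE 0.80, adjusted p = 0.00608) and DNMT1 at -1.55 (SE 0.49, adjusted p = 0.0425). The SE of the UHRF1 difference was below that of its MS-275 fold change alone, 0.34. The shared variance, with the pyruvate libraries close together, can thus understate the spread in the MS-275 experiment. With the length and GC dependence removed, they were at -4.25, -3.08 and -2.28. The DNMT1 difference from MS-275 did not pass the threshold when any of 6 libraries was left out, with adjusted p from 0.0808 to 0.126.

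A485 and MS-275 differed for 0 of 9 genes in limma, where 3.81% of all genes differed, and no member had an unadjusted p under 0.05. The difference with the smallest p was that of HELLS, 1.38 (SE 0.95, adjusted p = 0.53). Each experiment had its own controls and its own normalisation, so a difference between treatments and a difference between experiments cannot be told apart.

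Of 7 partners of the maintenance machinery, 6 were listed, and all 6 rose in pyruvate, where 31.0% of all genes did, with a median log2 fold change of 2.18. They included PCNA, the replication clamp, at 413 and 401 in Control6 and 2197 and 2294 in pyruvate (log2 fold change 2.46, adjusted p = 1.44e-09), USP7, the deubiquitinase that stabilises DNMT1 and UHRF1, at 2.05, and UHRF2, the paralogue of UHRF1, at 2.31. The length and GC dependence was not removed from the pyruvate values of this list or of the lists below. limma without the replicate block called no gene at all in MS-275, so a count of none there does not set apart this list or the lists below. With the block it called none of the 6 in MS-275, where 13.7% of all genes were called. In A485, where 10.4% of all genes were called, and in MS-275 none of the 6 was called without the block, with medians of -0.42 and -0.42. CDCA7, which recruits HELLS to chromatin, had the smallest p of the list in both, with 1163 and 352 in Control2 and 167 and 57.0 in A485 (log2 fold change -2.70, adjusted p = 0.0613), and 529 and 242 in Control3 and 205 and 185 in MS-275 (-0.87, adjusted p = 0.649).

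A further list held 22 genes of the replication fork and its licensing, among them PCNA, which was also in the list of partners. In MS-275 all 22 were lower within both replicate numbers, as 40.4% of all genes were, and limma called none, with a median of -1.45. With the replicate block limma called 17 of the 22 lower, where 13.7% of all genes were called in either direction. CDC6, the licensing factor, measured 648 and 680 in Control3 and 136 and 176 in MS-275 (log2 fold change -2.09, adjusted p = 0.193). In pyruvate 11 of 21 listed rose, where 31.0% of all genes did, among them MCM6 and MCM4 of the replicative helicase at 2.09 and 1.61, and 1 fell, GINS4 (-1.05), with a median of 1.32. In A485 18 of 22 were below 0, with a median of -0.48, and 1 was called, where 10.4% of all genes were. It was GINS4, which fell (998 and 479 in Control2, 214 and 158 in A485, log2 fold change -1.90, adjusted p = 0.0359). The summed values of the list ranged from 18515 to 43196 within Control2, with replicate 1 high as for UHRF1 and DNMT1. The part of cell proliferation in the values of DNMT1, UHRF1 and HELLS was not tested.

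Among 15 genes of the later demethylation and base repair steps, 14 were listed in A485 and 1 was called, where 10.4% of all genes were. It was IDH2, which makes 2-oxoglutarate, the cosubstrate of TET enzymes, in mitochondria. IDH2 fell from 3615 and 3702 in Control2 to 1904 and 1598 in A485 (log2 fold change -1.07, adjusted p = 0.0168). In pyruvate 5 of 14 rose, where 31.0% of all genes did, and 5 fell, where 54.1% of all genes were called in either direction. The highest was TDG, the glycosylase that excises oxidised methylcytosine, at 66.8 and 48.8 in Control6 and 783 and 669 in pyruvate (log2 fold change 3.64, adjusted p = 2.79e-08), and the rise also took in IDH1 (1.33) and OGT (1.61), the glycosyltransferase that binds TET proteins. In MS-275 none of 15 was called, and NEIL1 had the smallest p (-1.52, adjusted p = 0.381). With the replicate block limma called 1 of the 15, NEIL1, lower, where 13.7% of all genes were called in either direction.

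Among the 8 other methyl-CpG readers, ZBTB38 alone was called in A485, where 10.4% of all genes were. It fell from 6636 and 7896 in Control2 to 2907 and 3365 in A485 (log2 fold change -1.21, adjusted p = 0.0127). In pyruvate ZBTB38 rose from 218 and 194 in Control6 to 1200 and 1187 (2.53). ZBTB4 and MBD3 fell in pyruvate, at -1.49 and -1.05, and in all 3 readers rose and 2 fell there, where 54.1% of all genes were called. None of the 8 was called in MS-275 with or without the replicate block, and MBD3 had the smallest p without it (-0.90, adjusted p = 0.62). Of the 9 NuRD subunits that work with MBD2, RBBP7 (1.64) and RBBP4 (1.61) rose in pyruvate, where 31.0% of all genes rose, and no other was called. None was called in A485, where 10.4% of all genes were, or in MS-275 without the replicate block. With the block limma called 1 of the 9 lower in MS-275, where 13.7% of all genes were called. All 9 had fold changes below 0 in MS-275, with a median of -0.24, and CHD3, a remodelling ATPase of the complex, was at 13520 and 14288 in Control3 and 5896 and 6513 in MS-275 (-1.17, adjusted p = 0.286).

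Of the 11 genes that supply the methyl donor S-adenosylmethionine and recycle its product, 1 was called in A485, where 10.4% of all genes were. It was SHMT2, the mitochondrial serine hydroxymethyltransferase. SHMT2 fell from 9679 and 8363 in Control2 to 3251 and 2953 in A485 (log2 fold change -1.54, adjusted p = 0.00547). In pyruvate 3 rose and 2 fell, near the 54.1% of all genes that were called, among them MAT2B (1.76), MTRR (2.53) and AHCY, the hydrolase that clears S-adenosylhomocysteine (-1.13). In MS-275 none was called with or without the replicate block, and AHCYL1 had the smallest p without it (0.90, adjusted p = 0.405).

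Likeness of pattern was measured by Pearson correlation over the 12 libraries, centred within each experiment, among 11988 genes tested in all 3. It is a description, since libraries of 1 experiment share a normalisation and the pyruvate libraries carry much of the spread. UHRF1 was most like TRIP13 (0.994), AURKA (0.988) and FAM83D (0.985). DNMT1 was most like ENSG00000285756 (0.945), FOXM1 (0.945) and PCNT (0.939). HELLS was most like ATAD2 (0.985), MDM4 (0.982) and MZT1 (0.978).

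TET2 was most like NCOA2 (0.989), ROBO1 (0.989) and MED13L (0.988), and TET3 most like TENM3 (0.985), SCN8A (0.974) and PTPN14 (0.973). MBD2 was most like MBD4 (0.962), a glycosylase with a methyl-CpG-binding domain, ACBD3 (0.955) and HDAC2 (0.954), the deacetylase of NuRD. DNMT3B was most like PDSS1 (0.932), ZNF543 (0.931) and LYAR (0.921), and DNMT3A most like SAFB (0.911), SMG1P7 (0.906) and WHAMMP1 (0.886). Within the set, the highest correlations were TET2 with TET3 (0.893), TET2 with HELLS (0.857) and DNMT1 with UHRF1 (0.853), and the lowest was DNMT3A with TET3 (0.252).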

How the data were processed

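RNA from IMR90 cells was sequenced as paired-end Illumina reads by either of 2 providers. Per the labels and the study's methods, the authors trimmed reads with Trim Galore 0.6.10, aligned them to hg38 with HISAT2 2.2.1 and SAMtools 1.7, counted genes with featureCounts 2.0.6 and normalised with DESeq2 1.34.0. The deposited values are a signal, read counts per gene over 1 size factor per library, and each experiment was normalised alone. The annotation and strand setting of the counting are not given in the sources used here, so reads of DNMT1 and the overlapping S1PR2, and of TET2 and its antisense RNA, may be mixed.

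Values were tested as log2(value + 1) with limma 3.58.1 in R 4.3.3, on genes with a mean of at least 10, with a trended prior and no covariate, 4 libraries per comparison, and Benjamini-Hochberg adjustment over all genes. Fold changes on that scale understate changes of low genes. In all 12 libraries 100% of values came out as whole reads within 1e-04 of a read, with the value of 1 read taken from each library's lowest values. On these reads edgeR 4.0.16 called 1664 of 16084 genes in A485, 0 of 15883 in MS-275 and 6463 of 12013 in pyruvate, and DESeq2 1.42.0 called 2325, 575 and 6419. Lengths and GC content came from GENCODE canonical transcripts, matched for 98.4% to 99.0% of genes. The fits were tested on simulated data. All 9 members were named, and from each other list those called, up to the 3 with the smallest p, or the 1 with the smallest p where none was called. Members and lists were chosen with earlier results of these data known. Mouse muscle libraries were not used here.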

Additional observations from a re-analysis of the deposited data

How the results depend on the processing

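Replicate numbers gave only 2 pairs and no source says what a number marks, so the main tests above ignore them. Deviations of libraries with the same number correlated at 0.32 in the A485, 0.73 in the MS-275 and 0.00 in the pyruvate experiment. With a replicate block, limma called 1 member in A485 (UHRF1), where 15.5% of all genes were called, and the same 5 in pyruvate, where 54.2% were. In MS-275 it called 3 (DNMT1, UHRF1 and HELLS, adjusted p from 6.77e-08 to 1.88e-04), where 13.7% of all genes were called. With the length and GC dependence also removed, the counts were again 1 in A485 and 3 in MS-275, where 14.2% and 12.4% of all genes were called. The block moved the difference between A485 and MS-275 to 1 member (HELLS), where 29.1% of all genes passed, and that between MS-275 and pyruvate to 8, where 74.5% of all genes passed.

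DESeq2 on recovered reads called 1 member, UHRF1, in A485, where 14.5% of all genes were called, and the same 1 in MS-275, where 3.62% were. A fit shared by the 12 libraries also called UHRF1 alone in MS-275, where 4.06% of all genes were called. Members that differed between A485 and pyruvate numbered 4 of 8 under quantile normalisation, where 61.2% of all genes differed, and 4 of 8 in the shared fit, where 48.3% did. Those that differed between MS-275 and pyruvate numbered 7 with equal library totals, 6 with the length and GC dependence removed and 5 in the shared fit. The shares of all genes were 42.2%, 39.7% and 46.0% in the same order. Without 1 library in turn the counts ranged from 0 to 1 in A485, 0 to 0 in MS-275, 4 to 5 in pyruvate, 0 to 0 for A485 against MS-275, 5 to 7 for A485 against pyruvate and 2 to 5 for MS-275 against pyruvate, the 5 being without Control3 replicate 2 or MS-275 replicate 1. The cause of these shifts was not tested. Other pseudocounts, filters and priors kept every count within 1.5 times. TMM factors and edgeR on recovered reads gave 0 members in A485, where 10.7% and 10.3% of all genes were called, and 0 in MS-275, where no gene was. These and DESeq2 called the same 5 in pyruvate, where 53.4% to 53.8% of all genes were called. TET2 and HELLS rest on few reads in Control6.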

Other observations

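Of 24 germline and cancer-testis genes whose promoters are commonly methylated in somatic cells, 3 were listed in the A485 and MS-275 experiments and 2 in the pyruvate experiment. TEX15 measured 31.0 and 2.45 in Control2 and 60.7 and 33.0 in A485, and 35.7 and 0 in Control3 and 77.5 and 9.97 in MS-275, and was not called in either. MOV10L1 rose in pyruvate, from 18.7 and 32.6 in Control6 to 75.7 and 71.1 (log2 fold change 1.53, limma adjusted p = 0.00649), and was not called in A485 (25.7 and 135 in Control2, 28.7 and 27.6 in A485) or in MS-275 (92.1 and 160 in Control3, 52.3 and 36.9 in MS-275). CTAG2 followed the replicate number in the MS-275 experiment, with 208 and 1495 in Control3 and 183 and 1502 in MS-275, and was not called in any comparison. Its reads are uncertain, since CTAG2 has closely similar copies.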
